A study of Mus musculus with 12 samples.

Results

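The genes described here are 7 regulators of lymphocyte identity and of the NF-kB pathway: Pax5, Bcl11b, Nfkbia, Rel, Tnfaip3, Ezh2 and Ep300. They were chosen by name, 7 of 20294 autosomal genes that the array names, and each was read by every probe that carries its name. Copy number was measured by array comparative genomic hybridisation, which sets tumour DNA, labelled red with Cy5, against reference DNA, labelled green with Cy3, on the same array. The reference was normal kidney of C57BL/6 mice, and each of the 12 tumours had 1 array. A log2 ratio above 0 means more tumour than reference DNA, and each array was centred on the mode of its autosomal probes.

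The tumours came from C57BL/6 mice that were either wild type or knocked out for Mutyh, a DNA glycosylase that removes adenine paired with oxidised guanine. Treated mice received Fe-NTA (ferric nitrilotriacetate), an iron chelate that damages the kidney by oxidation, labelled as 3 months of treatment. Those groups began with 20 males each and had 5 injections a week over 12 weeks, with a dose of 3 mg iron per kg at first (week 1) that was raised to 5 mg for the remaining 11 weeks. Death was at about 120 weeks. All 4 renal cell carcinomas were from treated mice, namely the knockouts KO1080, KO1097 and KO1134 and the wild type WT1179. Of the 8 malignant lymphomas, treated mice gave the knockouts KO1077 and KO1111 and the wild types WT1113, WT1114 and WT1121. Untreated mice gave the knockout KO1414 and the wild types WT1405 and WT1420. The labels name no B or T cell class for the lymphomas. The carcinomas lay on slide 1 and the lymphomas on slides 2 and 3, so tumour type and slide cannot be told apart.

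NF-kB is a family of transcription factors that the inhibitor IkB-alpha, made from Nfkbia, holds in the cytoplasm. Rel encodes c-Rel, the family member typical of lymphocytes, and Tnfaip3 encodes A20, an enzyme that edits ubiquitin and shuts the signal off. Pax5 commits cells to the B lineage and Bcl11b to the T lineage. Ezh2 is the methyltransferase of Polycomb repressive complex 2, and Ep300 is a histone acetyltransferase that acts at enhancers. Gains of the Rel region and losses of Tnfaip3 are known from human B cell lymphomas.

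The depth of the readout differed between genes, and 3 of the 7 rest on few probes. Pax5 had 17 probes, Bcl11b 9, Ezh2 7 and Ep300 7, but Rel had 3, Tnfaip3 2 and Nfkbia 1. The 60-base probes of the last 3 genes are shown because each value of these genes depends on them. They are written as the array files give them, at mm9 positions, with the strand not stated.
Nfkbia, chr12:56591856-56591915: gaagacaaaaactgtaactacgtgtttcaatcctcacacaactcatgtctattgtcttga
Rel, probe 1, chr11:23648638-23648697: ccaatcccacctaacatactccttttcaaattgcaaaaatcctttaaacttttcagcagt
Rel, probe 2, chr11:23654748-23654807: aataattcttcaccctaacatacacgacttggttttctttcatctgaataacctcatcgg
Rel, probe 3, chr11:23668716-23668775: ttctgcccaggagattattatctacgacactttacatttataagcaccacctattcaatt
Tnfaip3, probe 1, chr10:18723890-18723949: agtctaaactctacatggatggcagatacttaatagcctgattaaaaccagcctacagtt
Tnfaip3, probe 2, chr10:18730580-18730639: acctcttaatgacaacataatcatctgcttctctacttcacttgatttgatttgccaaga
Between 61 and 93 further probes lay within 500 kb of each gene and gave its local level. The noise between neighbouring probes was 0.12 to 0.17 in log2 units per tumour. Intron, exon and UTR positions are not given, since no mm9 annotation was used.

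On the whole arrays, the share of spots well above background in both channels was 99.856% to 99.938%. The genotype labels were checked on the Mutyh probe at chr4:116490496-116490555, which read -3.21 to -2.39 in the 6 knockout tumours and -0.75 to 0.14 in the 6 wild types, with no overlap. A second Mutyh probe, at chr4:116480656-116480715, read -0.58 to 0.26 in the knockouts and -0.82 to 0.20 in the wild types, which overlap. Lymphocytes delete parts of their antigen receptor loci as they mature, and focal losses there served as the marker of lymphoid DNA. Focal losses were called in 7 of 8 lymphomas at Igh. Igk and Tcra/Tcrd each had them in 5 lymphomas, and Tcrb had them in 4. The 4 carcinomas had 0 focal losses at these loci. Lymphoma WT1405 had 0 focal losses at any of the 4 loci, and its mean at each lay 0.03 to 0.08 below its chromosome median. Losses were called from 0, and Igk and Tcrb lie on chromosome 6, whose median was 0.51 in this tumour. A focal loss at these loci therefore had to be deeper to be called. In bulk DNA, fewer tumour cells with a change and a smaller change per cell cannot be told apart. Each tumour is 1 animal, and p-values set a difference against the spread between these animals. The fit shared its estimate of that spread between tumour types, which could differ in it. For Pax5 the SD was 0.23 in carcinomas and 0.02 in lymphomas.

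A gene was called lost or gained where the segment that held it lay at least 0.25 from 0 over at least 5 probes. Such a call was named focal where the run of calls was at most 10 Mb, with the chromosome where calls of that sign covered at least 80% of it, and regional otherwise. In lymphomas 6 of the 56 pairs of a member and a tumour were gained and 0 were lost. Over all named genes, 5.68% of pairs were gained in lymphomas and 0.188% lost. Of the 6 gains WT1405 held 3, so without it 3 were left, and the share of all pairs without it is not given. With a threshold of 0.4, 3 were called, against 1.32% of all pairs. With arrays centred on the median 4 were called, against 3.20%. In carcinomas 13 of 28 pairs were lost and 1 was gained, against 18.7% and 1.58% of all pairs. Genes on 1 chromosome share their calls, so these pairs are not independent. Focal calls made up 2 of the 20, Rel in lymphoma KO1111 and Tnfaip3 in carcinoma KO1097. The share of focal calls over all genes is not given, so this count has nothing to stand against.

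**Figure D1:**
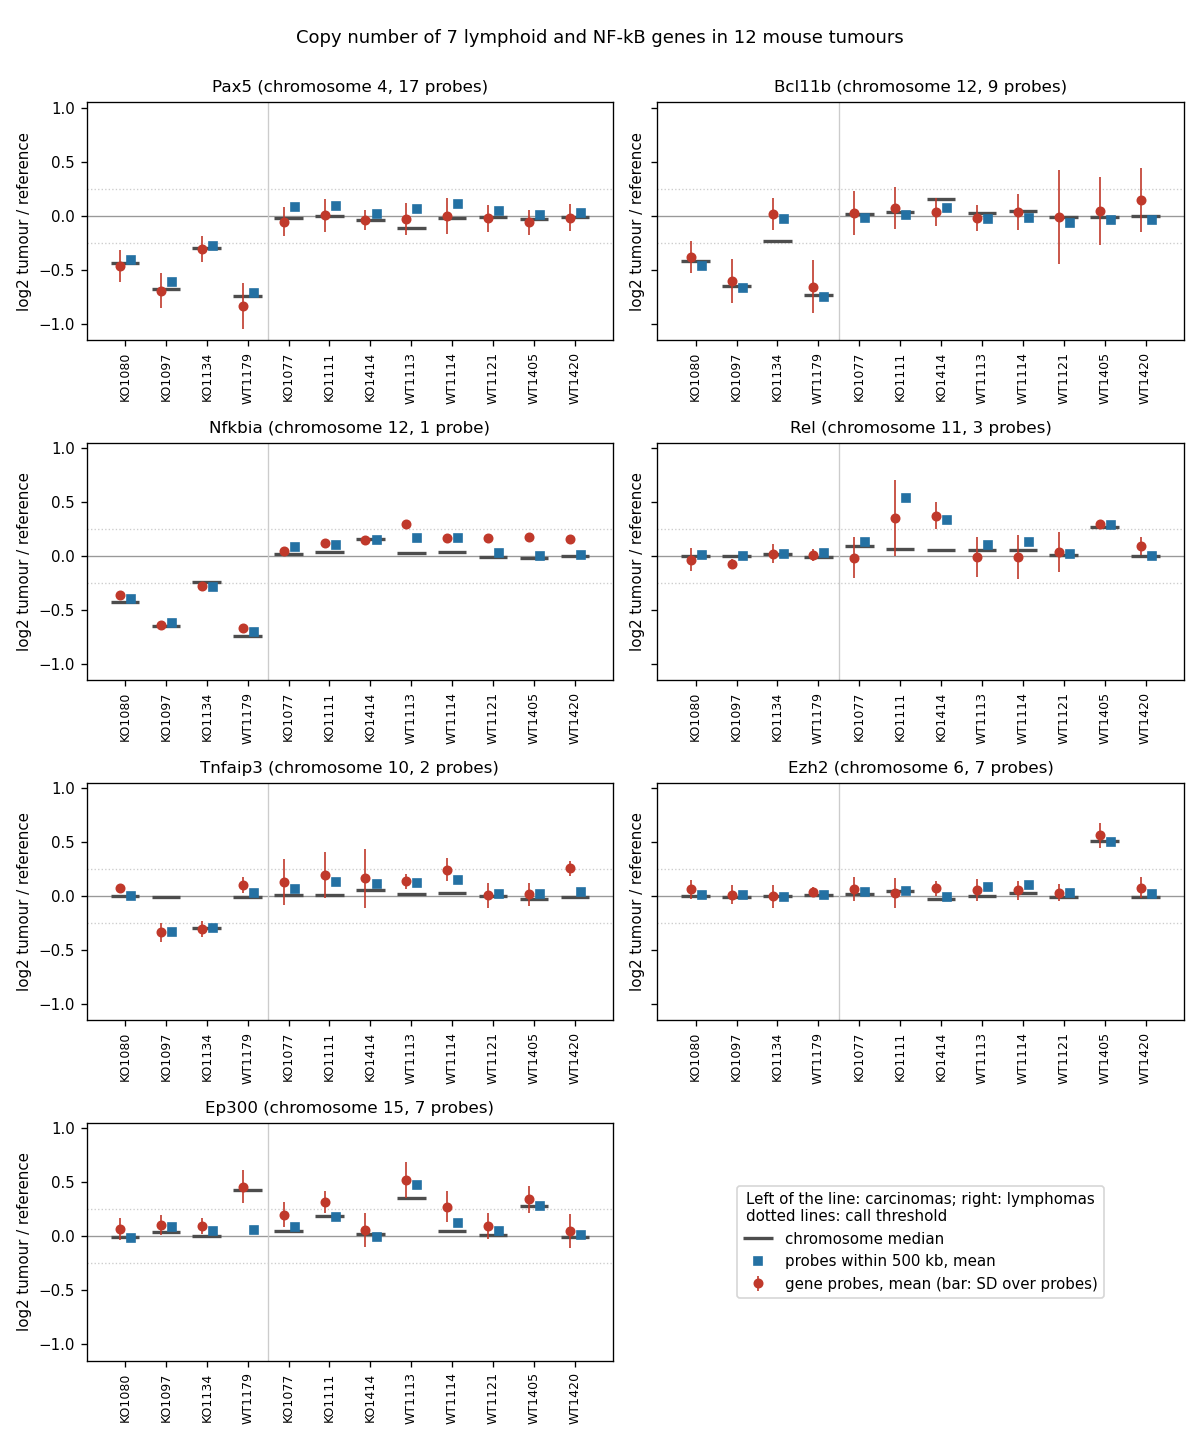
Log2 ratio of tumour over reference for each of the 7 genes (one panel each) in each tumour, with the mean over the gene's probes (circles, bars show the SD over probes), the mean of probes within 500 kb (squares) and the chromosome median (horizontal lines). The carcinomas stand left of the vertical line; Pax5 lay between -0.83 and -0.31 there and between -0.06 and 0.00 in the lymphomas.

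Pax5, on chromosome 4, was lower in each carcinoma than in every lymphoma. Its carcinoma values were -0.47 (KO1080), -0.69 (KO1097), -0.31 (KO1134) and -0.83 (WT1179). The lymphomas ranged from -0.06 to 0.00 with a median of -0.03, and the groups did not overlap. The mean was -0.58 ± 0.23 (SD, n = 4) in carcinomas and -0.03 ± 0.02 (SD, n = 8) in lymphomas. The difference adjusted for genotype and treatment was -0.59 ± 0.09 (SE), with a limma adjusted p of 0.000511. Of all genes tested, 12.7% were lower and 0.873% higher in carcinomas, and the median difference over all genes was -0.09. In each carcinoma the call ran with the chromosome, at 96.7% to 98.6% of its probed length. The mildest, in KO1134, was not called with a threshold of 0.4 or with arrays centred on the median. Relative to the chromosome median, Pax5 differed between tumour types by -0.05 ± 0.03, with a limma adjusted p of 0.319. All 17 probes were below 0 in each carcinoma, from -0.06 at the mildest in KO1134 to -1.22 at the lowest in WT1179. In every tumour the Pax5 probes lay 0.03 to 0.13 below those around them.

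Nfkbia and Bcl11b share chromosome 12 with a long stretch between them, and their calls differed in 1 carcinoma. The carcinoma values of Nfkbia were -0.36 (KO1080), -0.64 (KO1097), -0.27 (KO1134) and -0.66 (WT1179). The lymphomas ranged from 0.05 to 0.29 with a median of 0.16, so the groups did not overlap. The means were -0.48 ± 0.20 (SD, n = 4) in carcinomas and 0.16 ± 0.07 (SD, n = 8) in lymphomas. The adjusted difference was -0.65 ± 0.09 (SE), with a limma adjusted p of 0.000336. The 73 probes around this single probe gave nearly the same levels in carcinomas, -0.40, -0.62, -0.28 and -0.71 in the same order. In lymphomas WT1121, WT1405 and WT1420 the single probe read 0.16 to 0.17, while the probes around it read -0.00 to 0.03. In lymphoma WT1113 it read 0.29 against 0.16 around it. These differences, 0.13 to 0.18, were about as large as their SE of 0.13 to 0.14. In WT1113 the segment that held Nfkbia spanned 1.43 Mb with a mean of 0.16, between segments of -0.03 and -0.05. With a threshold of 0.15 Nfkbia was called gained in WT1113 and in KO1414. At that threshold 10.5% of all pairs in lymphomas were gained.

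Bcl11b read -0.38 in KO1080, -0.60 in KO1097 and -0.66 in WT1179, but 0.02 in KO1134. The lymphomas ranged from -0.02 to 0.15 with a median of 0.03. KO1134 thus lay inside the lymphoma range and the other 3 carcinomas below it. The means were -0.41 ± 0.31 (SD, n = 4) and 0.04 ± 0.05 (SD, n = 8). The adjusted difference was -0.46 ± 0.11 (SE), with a limma adjusted p of 0.0137. Without WT1179 it was -0.35, with a limma adjusted p of 0.109, so the call rests on that tumour. In KO1080, KO1097 and WT1179 both genes were lost with the chromosome, and the call covered its whole probed length.

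In carcinoma KO1134 the loss of chromosome 12 stopped between the 2 genes. A segment of 85.81 Mb from the chromosome's first probe to position 88912636 had a mean of -0.30 over 5015 probes and held Nfkbia. From position 89268384 the next 24.13 Mb had a mean of -0.00 over 1595 probes and held Bcl11b. Nfkbia's regional loss was the shallowest of its 4 losses, and with a call threshold of 0.4 or with arrays centred on the median it was no longer called. The fitted difference relative to the chromosome median was 0.12 ± 0.06 for Bcl11b and -0.06 ± 0.04 for Nfkbia, with limma adjusted p-values of 0.234 and 0.302.

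The segments that held Pax5 and Nfkbia had nearly the same mean in each carcinoma. They had means of -0.42 and -0.41 in carcinoma KO1080 and of -0.66 and -0.66 in carcinoma KO1097. They were -0.30 and -0.30 in carcinoma KO1134 and -0.72 and -0.72 in carcinoma WT1179. In KO1097 the called losses at the start of chromosome 12 and at Tnfaip3 were shallower. Its other losses were not compared. The first 13.87 Mb of its chromosome 12 had a mean of -0.31 over 777 probes, and the focal loss at Tnfaip3 had a mean of -0.29. In KO1134 the Tnfaip3 loss had a mean of -0.29, near the other losses. These levels were set side by side after they were seen and have no test.

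One of the 9 Bcl11b probes stood apart, and its sequence is shown because it sets the spread of the gene in 3 lymphomas.
Bcl11b, probe 4, chr12:109183411-109183470: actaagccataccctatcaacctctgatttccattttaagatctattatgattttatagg
It read 1.06 in WT1121, 0.81 in WT1405 and 0.82 in WT1420, and -0.02 to 0.34 in the other 5 lymphomas. These 3 were the wild types of slide 3, and the other array of that slide, the knockout KO1414, held the lowest of the 8 values. In the carcinomas it read -0.24, -0.46, 0.13 and -0.55, each 0.17 to 0.22 above the probes around the gene. Of the other 8 Bcl11b probes, the highest was 0.09 in WT1121, 0.20 in WT1405 and 0.37 in WT1420. Without that probe, an option looked at after the values were seen, the gene mean moved from -0.01 to -0.14 in WT1121, from 0.04 to -0.05 in WT1405 and from 0.15 to 0.07 in WT1420. A single probe can carry no call here, and genotype, slide and the probe's own binding as a source of its level were not tested.

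**Figure D2:**
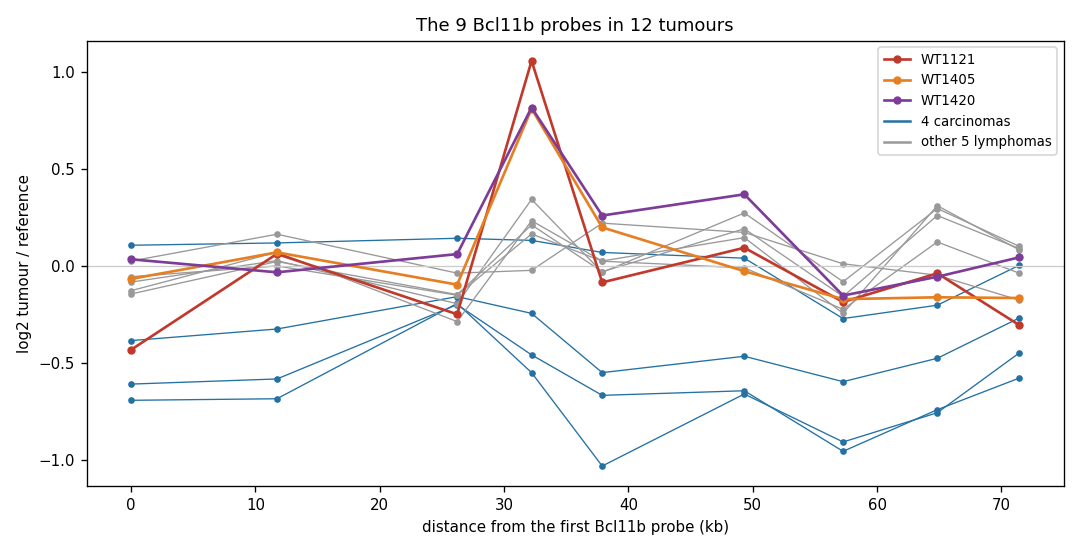
Log2 ratio of each of the 9 Bcl11b probes (points) by distance in kb from the first one, with a line per tumour; blue lines are the 4 carcinomas and grey lines the other 5 lymphomas. Probe 4 reads 0.81 to 1.06 in WT1121, WT1405 and WT1420 and at most 0.34 in the rest.

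Rel, on chromosome 11, was gained in 3 lymphomas, and each gain had another extent. It read 0.35 in KO1111, 0.37 in KO1414 and 0.29 in WT1405, and -0.01 to 0.09 in the other 5 lymphomas. The carcinomas read -0.03, -0.07, 0.02 and 0.01 in the order KO1080, KO1097, KO1134 and WT1179. The 76 probes around the gene gave 0.54, 0.33 and 0.28 in the 3 gained lymphomas and at most 0.13 elsewhere.

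In KO1111 the gained run was 3.98 Mb long, from position 20612335 to 24595414, with a mean of 0.52 over 276 probes. It was focal by the rule used, but it did not stand alone. The 17.57 Mb before it had a mean of 0.22, just under the threshold, and the 3.30 Mb after it 0.21. A second gain of 10.62 Mb followed, with a mean of 0.49, and the remaining 83.20 Mb had a mean of 0.03. Of Rel's own probes probe 1 read -0.05 in KO1111, and probes 2 and 3 read 0.58 and 0.54. Probe 1 was also the lowest of the 3 in lymphomas KO1077, KO1414, WT1113, WT1114 and WT1121, at -0.25 to 0.23, and in carcinomas KO1080, KO1097 and KO1134, at -0.15 to -0.05. Its low reading in KO1111 lowers the gene mean below its surroundings.

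The run of KO1111 held 35 genes with all their probes inside it, with values from 0.33 to 0.76 and a median of 0.52. One of them, Bcl11a, belongs to the list of lymphoid transcription factors and read 0.69 over 8 probes. It encodes a zinc finger repressor needed for early B cells. Pus10, Usp34, Xpo1 and Peli1 also lay in it and read 0.56, 0.54, 0.47 and 0.60; these 4 were picked after their values were seen. Rel was thus 1 of many genes at a raised level.

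In KO1414 the gain was regional, a segment of 29.86 Mb with a mean of 0.30 over 1803 probes, which began 8414.7 kb before Rel. After 1 outlying probe a further 2.03 Mb was called gained, with a mean of 0.31. Both sides of the gene read alike there, 0.34 and 0.31. In WT1405 the whole chromosome was gained, with segment means of 0.28 and 0.27. With a threshold of 0.4 neither of these Rel gains was called. With arrays centred on the median that of WT1405 was lost, as was the Ep300 call of the same tumour. Before centring, the mode of this array lay at -0.09 and its median at -0.01. The mean was -0.02 ± 0.04 (SD, n = 4) in carcinomas and 0.14 ± 0.17 (SD, n = 8) in lymphomas. Between tumour types Rel differed by -0.13 ± 0.08 (SE), with a limma adjusted p of 0.343. Relative to its flanks the Rel difference was 0.10 ± 0.04 (limma adjusted p of 0.113), and 14.9% of all genes were called there. Without lymphoma WT1121 that difference was 0.12, with a limma adjusted p of 0.0129, in a fit that called 5522 of 20286 genes. Relative to the flanks, Rel's probe 1 read -0.59 to -0.32 in the lymphomas of slide 2 and -0.13 to 0.19 in those of slide 3. In the carcinomas it read -0.16 to -0.01. Probes 2 and 3 read -0.08 to 0.23 and -0.08 to 0.13 over all tumours, so the difference rests largely on probe 1.

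**Figure D3:**
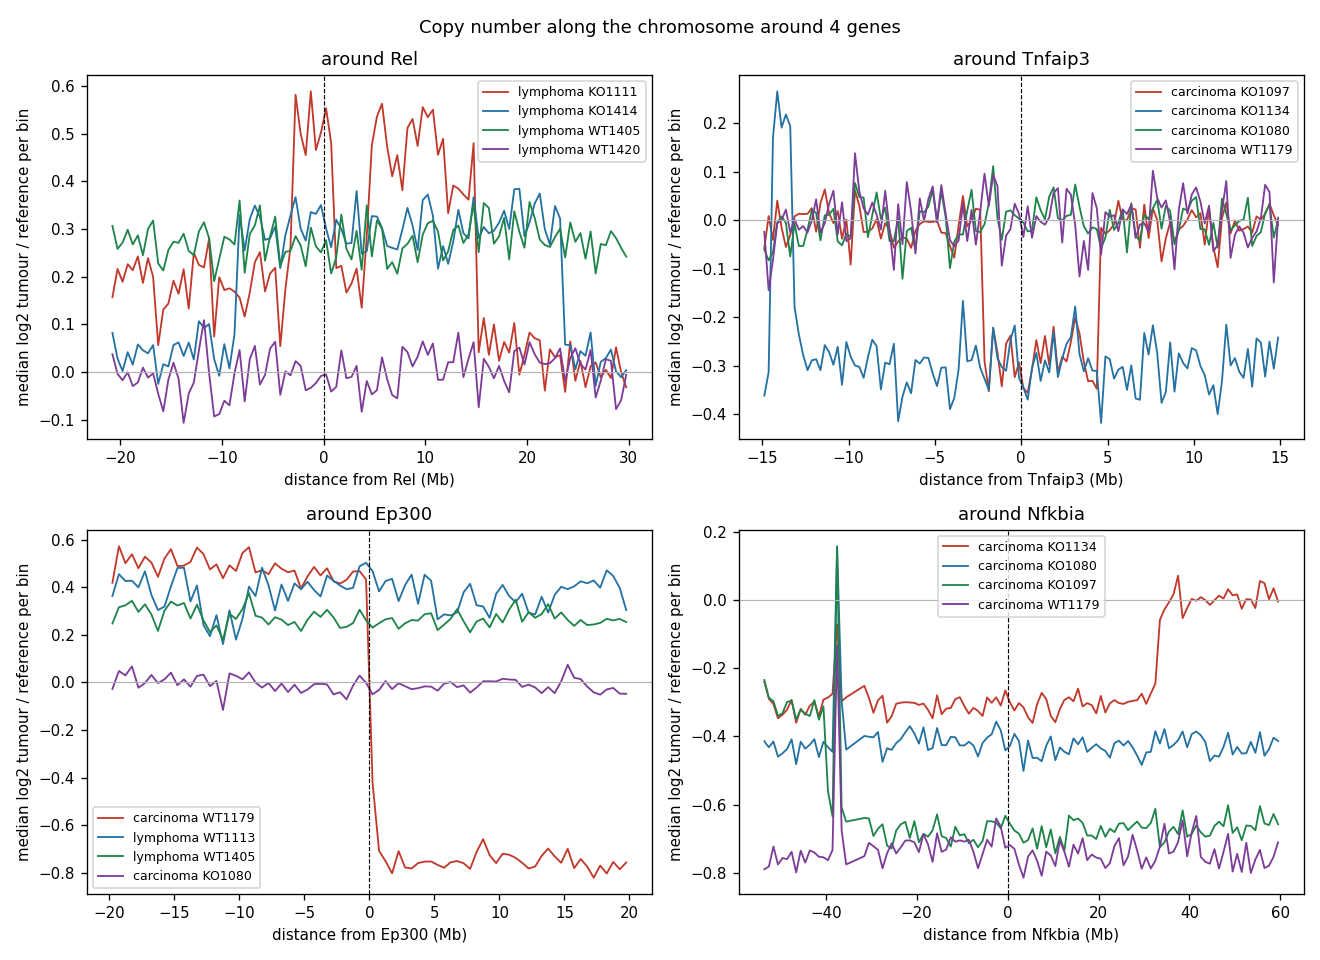
Median log2 ratio per bin along the chromosome, by distance in Mb from Rel, Tnfaip3, Ep300 and Nfkbia (panels; the dashed line marks the gene), with a line per tumour. The run at Rel in KO1111 spans 3.98 Mb and the run at Tnfaip3 in KO1097 6.67 Mb; WT1179 steps from 0.44 to -0.72 just after Ep300, and KO1134 steps from -0.30 to -0.00 after Nfkbia.

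Tnfaip3, on chromosome 10, was lost in 2 carcinomas and in 0 lymphomas. It read -0.33 in KO1097 and -0.31 in KO1134, and 0.07 in KO1080 and 0.10 in WT1179. The lymphomas ranged from 0.01 to 0.26 with a median of 0.15. The 2 carcinomas lay below every lymphoma, and the other 2 lay within the lymphoma range. The means were -0.12 ± 0.24 (SD, n = 4) and 0.14 ± 0.09 (SD, n = 8). The adjusted difference was -0.24 ± 0.10 (SE), with a limma adjusted p of 0.167. With no alternative setting did it fall under 0.0767.

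The loss in KO1097 was focal and that in KO1134 ran with the chromosome. In KO1097 it reached from position 16553408 to 23219150, 6.67 Mb with a mean of -0.29 over 435 probes. The segments before and after it both had a mean of -0.01, as did the chromosome median. It began 2170.5 kb before Tnfaip3 and ended 4488.5 kb after it. Both probes of the gene were low in KO1097, at -0.27 and -0.40, and the flanks read -0.31 on the left and -0.36 on the right. In KO1134 the call covered 98.9% of chromosome 10, with a mean of -0.29 around the gene. Both losses passed the threshold by little. With a threshold of 0.4 neither was called, and with arrays centred on the median that of KO1134 was lost.

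The run of KO1097 held 50 genes, with values from -0.67 to -0.05 and a median of -0.29. Myb, of the list of lymphoid transcription factors, lay in it and read -0.27 over 4 probes; it is needed for blood progenitors. Ifngr1, a chain of the interferon gamma receptor, and Map3k5, a stress kinase, read -0.27 and -0.25 and were picked after their values were seen. Tnfaip3 itself read -0.33, within the range of the genes in the run. Relative to its flanks it differed between tumour types by -0.01 ± 0.05, with a limma adjusted p of 0.914.

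Ezh2, on chromosome 6, was gained in a single tumour, the untreated wild-type lymphoma WT1405. It read 0.57 there, and 0.03 to 0.08 in the other 7 lymphomas. The carcinomas read 0.06, 0.01, -0.00 and 0.04 in the order KO1080, KO1097, KO1134 and WT1179. All 7 probes were raised in WT1405, from 0.46 to 0.73, and the 67 probes around the gene read 0.50. The chromosome was gained over 99.9% of its probed length, with segment means from 0.49 to 0.52, and the chromosome median was 0.51. The receptor loci Igk and Tcrb lie on the same chromosome and read 0.43 and 0.48 in this tumour. The mean was 0.03 ± 0.03 (SD, n = 4) in carcinomas and 0.12 ± 0.18 (SD, n = 8) in lymphomas. The difference between tumour types was 0.00 ± 0.09 (SE), with a limma adjusted p of 0.981. This p does not show that the types are alike.

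Ep300, on chromosome 15, was gained in lymphomas WT1113 and WT1405 and in carcinoma WT1179. It read 0.52 in WT1113, 0.34 in WT1405 and 0.46 in WT1179. The other 6 lymphomas ranged from 0.05 to 0.32, and the other 3 carcinomas read 0.07, 0.11 and 0.10. In every tumour but WT1179 the Ep300 probes lay 0.02 to 0.15 above those around them. The highest of the uncalled values was KO1111, whose segment over the whole chromosome had a mean of 0.22, under the threshold. In WT1113 the call covered 96.6% of chromosome 15, and the segment with the gene had a mean of 0.40 over 31.68 Mb. In WT1405 it covered the whole chromosome, with a mean of 0.29, and was not called with a threshold of 0.4 or with arrays centred on the median. The means were 0.18 ± 0.19 (SD, n = 4) in carcinomas and 0.23 ± 0.16 (SD, n = 8) in lymphomas. The groups overlapped, and the difference between tumour types was -0.04 ± 0.10 (SE), with a limma adjusted p of 0.807.

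In carcinoma WT1179 the gain at Ep300 ended 203.3 kb beyond the gene. The segment that held it had a mean of 0.44 over 816 probes, and the gained run before that point was 78.57 Mb long. The next segment, the last 21.77 Mb of the chromosome, was lost, with a mean of -0.72 over 1764 probes. Within 500 kb the 43 probes on the left read 0.45. On the right the 20 probes up to the step read 0.42 ± 0.13 (SD over probes) and the 30 probes beyond it -0.72 ± 0.17. The mean of all probes around the gene, 0.06, therefore describes neither side. With the mean within 500 kb in place of the segment the call was lost.

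The step fell between both probes of Tob2, a gene of the antiproliferative BTG/TOB family, and these are shown because they bound it to 5.67 kb.
Tob2, last probe of the gain, chr15:81680539-81680598: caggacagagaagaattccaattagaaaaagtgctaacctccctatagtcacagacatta
Tob2, first probe of the loss, chr15:81686267-81686326: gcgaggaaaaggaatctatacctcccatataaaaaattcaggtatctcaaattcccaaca
The first of them read 0.53 in WT1179 and -0.18 to 0.45 in the other 11 tumours. The other read -0.60 in WT1179 and 0.03 to 0.54 in the other 11. All 7 Ep300 probes stayed on the gained side, at 0.25 to 0.66. The order of the pieces in the tumour's DNA is not seen by this assay.

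Neither genotype nor treatment was called for any of the 7 genes. Between knockouts and wild types the differences ranged from -0.16 ± 0.09 (SE) for Ep300 to 0.11 ± 0.07 for Rel, with limma adjusted p-values of at least 0.846. Over all genes 13 were called, 0.0641%. Between treated and untreated mice the differences ranged from -0.19 ± 0.09 for both Rel and Ezh2 to 0.14 ± 0.10 for Ep300, with limma adjusted p-values of at least 0.469. Limma called 0 of 20281 genes for treatment, 0%, while 2129 had an unadjusted p under 0.05. Without lymphoma WT1121 it called 478 genes, none of them a member. The untreated group holds 3 lymphomas, all on slide 3, and 2 of them carry the Rel gains of KO1414 and WT1405. Rel read 0.25 ± 0.14 (SD, n = 3) in untreated and 0.07 ± 0.16 (SD, n = 5) in treated lymphomas. The ranges overlapped, with the treated KO1111 at 0.35.

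Relative to the chromosome median, 6.05% of all genes were called between tumour types and 0 of the 7 members were, with 5642 genes at an unadjusted p under 0.05. The lowest limma adjusted p among members was 0.128, for Ep300 at -0.09 ± 0.03. Without lymphoma WT1121 it was 0.0498 at -0.10, in a fit that called 3372 of 20287 genes. With the slide as a random block 139 genes were called in all, and with the mean within 500 kb 0.

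**Figure D4:**
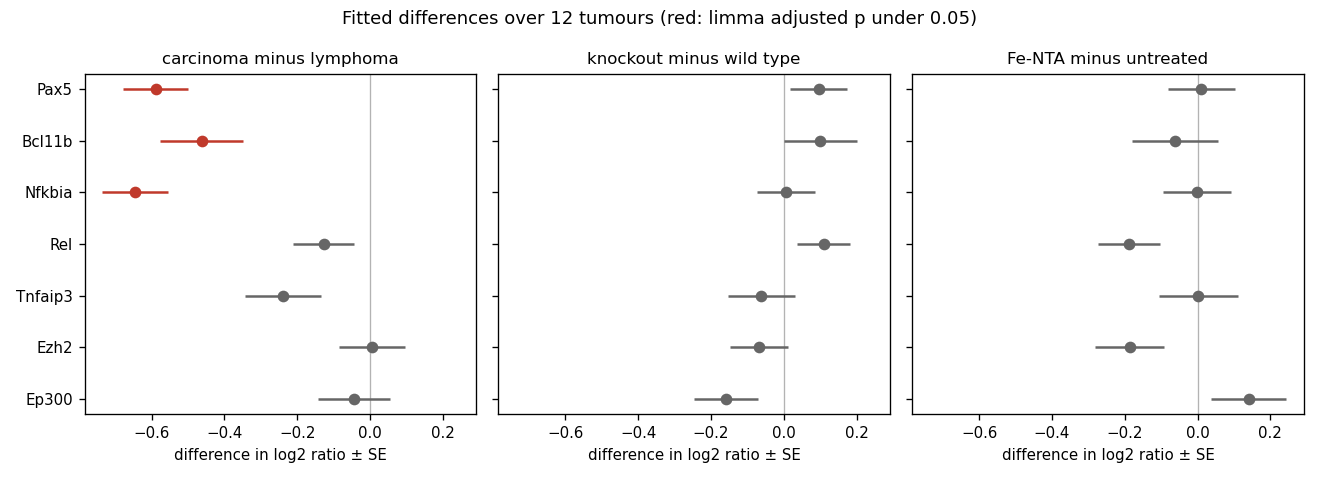
Fitted difference in log2 ratio with its SE for the 7 genes (rows) between tumour types, genotypes and treatments (panels), from one additive model over 12 tumours. Pax5, Bcl11b and Nfkbia, in red, lie between -0.65 and -0.46 in the first panel, and no gene is red in the other panels.

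The wider pathways were read from lists of genes with the same roles. Of 38 NF-kB pathway genes listed, 34 were measured, 4 were lower in carcinomas and 0 higher, and the median difference was -0.10 against -0.09 over all genes. The lowest were Traf3, an adaptor that restrains the alternative NF-kB pathway, at -0.61 ± 0.12 (SE), and Map3k7, the kinase TAK1, at -0.61 ± 0.09. Relb, the partner in the alternative pathway, differed by -0.42 ± 0.07 and Nfkbie, another IkB, by -0.25 ± 0.08. Their limma adjusted p-values were at most 0.048. Relb rests on 2 probes and Nfkbie on 1, and the level around them is not given. Bcl3, the list's other gene on chromosome 7 beside Relb, was not called, at 0.17 ± 0.07. Traf3 is on chromosome 12 and Map3k7 on chromosome 4, where Nfkbia and Pax5 lie, and these were the only 2 measured list genes there.

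Of 38 lymphoid transcription factors listed, 36 were measured, 6 were lower and 0 higher, with a median of -0.13. Bach2, a repressor of plasma cell fate, was lowest at -0.68 ± 0.08, followed by Id2, an inhibitor of E proteins, at -0.48 ± 0.09. Of the called genes Bcl6, the repressor of germinal centre B cells, and Lmo2, a bridging factor of blood progenitors, changed least, by -0.25 ± 0.06 and -0.28 ± 0.07. Id2 rests on 1 probe, Lmo2 on 2 and Bcl6 on 3. Chromosomes 4 and 12 held 4 of the 6, and all 4 measured list genes on them were called. Of 19 partners of Ezh2 and Ep300 listed, 17 were measured, and 3 were lower. These were Ncoa1, a nuclear receptor coactivator, at -0.57 ± 0.07, Rbbp4, a histone binding subunit of Polycomb repressive complex 2, at -0.55 ± 0.07, and Kdm6b, a demethylase of the mark that Ezh2 writes, at -0.46 ± 0.07. Kdm6b rests on 2 probes on chromosome 11 and had a carcinoma mean of -0.51 ± 0.06 (SD, n = 4). The median of that chromosome averaged 0.00 in the carcinomas, and the level around Kdm6b is not given. No list gene was called for genotype or treatment by limma. Shares of 4 in 34, 6 in 36 and 3 in 17 stand beside the 12.7% of all genes that were lower.

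**Figure D5:**
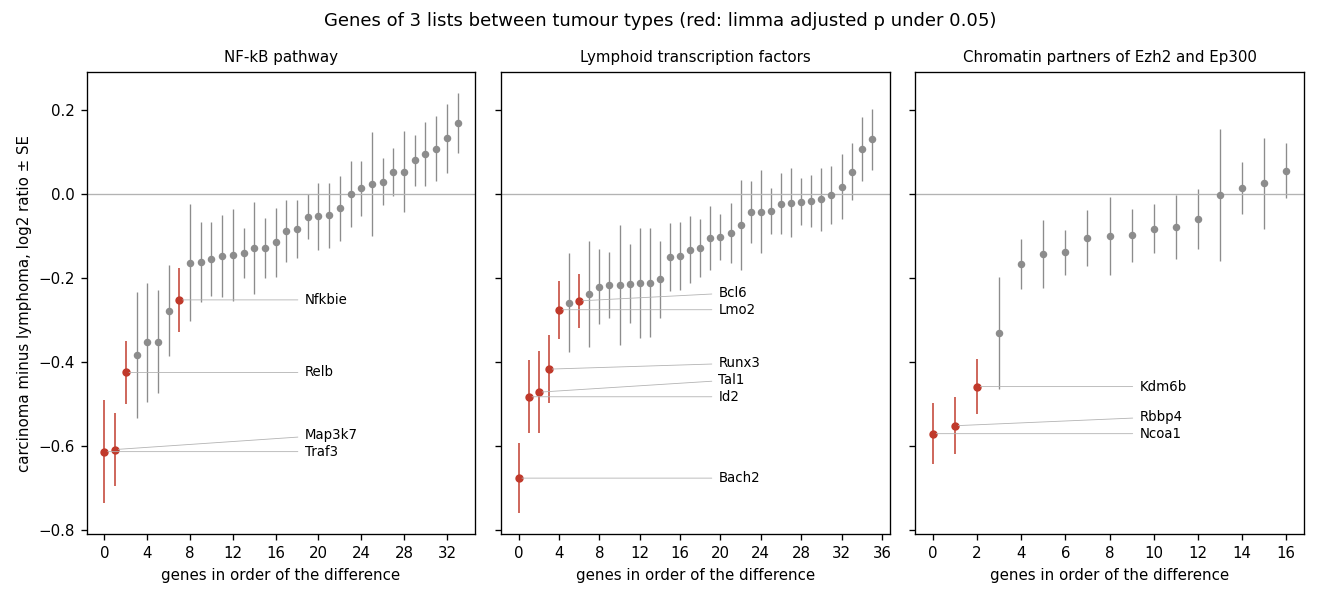
Difference in log2 ratio between carcinomas and lymphomas with its SE for each measured gene of the 3 lists (panels), in order of the difference; genes with a limma adjusted p under 0.05 are red and named. Each red gene lies below 0, from -0.68 for Bach2 to -0.25 for Nfkbie.

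Genes on other autosomes whose values ran most like those of a member were read by Pearson's r over the 12 tumours, which share slides and tumour type. These are descriptions with no test. For Pax5 these were Tmem63c and Sec23a on chromosome 12, at 0.996 and 0.990. For Bcl11b they were Decr1 and Slc31a1 and for Nfkbia Calr4 and Fbxo10, all on chromosome 4, each at 0.98 to 2 decimals. For Tnfaip3 they were Exoc2 and B3galnt2 on chromosome 13, each at 0.91. For Ep300, Trak2 on chromosome 1 is given, at 0.91. For Ezh2, where WT1405 alone stands high, they were Mib1 and Glra1 at 0.98 and 0.97. For Rel they were a transcript named ENSMUST00000116593 and AB016772 on chromosome 17, at 0.91 and 0.90.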

How the data were processed

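Genomic DNA of 4 renal cell carcinomas and 8 malignant lymphomas was read on 12 Agilent 2-colour arrays. The deposited intensity values are the processed red and green signals of Agilent Feature Extraction 10.7, per the submitters' processing notes, background-subtracted, detrended and linearly dye-normalized per the file headers, with probes placed in mm9. The deposited series table holds log2 values that matched the uncentred log2 of red over green (r of at least 0.99994, column medians from -0.02 to 0.02), which settled their scale and direction. It served as an alternative.

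Control spots were left out, leaving 161460 autosomal probes, and outlier spots were left out array by array. Ratios were centred on the mode (density bandwidth 0.05), probes were averaged per gene, and 1580 probes whose name lay on several chromosomes were dropped. Chromosomes were segmented by penalised least squares (penalty 10 × log n × noise variance, for n probes) in Python 3.11.15. Differences were fitted with limma 3.58.1 in R 4.3.3, additively on genotype, treatment and tumour type over 12 tumours, with Benjamini-Hochberg adjustment over all autosomal genes, at an adjusted p under 0.05. Both steps were tested on simulated data. The number of arrays limits the precision.

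The 7 genes and the lists were chosen with earlier results of these data known, so no count over them is independent support. The lists hold NF-kB pathway genes, lymphoid transcription factors and partners of Ezh2 and Ep300, matched by symbol or older symbol. Named were all 7 genes, per list the 2 lowest and 2 highest called genes, and per member the 2 genes on other autosomes with at least 3 probes and the highest Pearson correlation. One of these genes is not reported here. Alternatives changed the centring, background correction, spots, probe minimum, window, slide block, call threshold, penalty and tumours.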

Additional observations from a re-analysis of the deposited data

Results flagged for a closer look

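The 28 sets of values looked at were the gene and local level of each of the 7 genes in each tumour type. In 3 of them a tumour stood far from the others. Chance gives about 1 in 20 for independent sets. The gene and local level of a gene are read from the same stretch of DNA. The sets are therefore not independent, and their count cannot be set against that share. Lymphoma WT1405 stood above the other 7 lymphomas for Ezh2, at 0.57 for the gene and 0.50 for the probes within 500 kb. Carcinoma WT1179 stood above the other 3 carcinomas for Ep300, at 0.46.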

How the results depend on the processing

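In the fits, 708 alternative values for single members kept their side of the threshold and none of the called ones changed sign. The 3 exceptions, each on leaving out a single tumour, stand beside Bcl11b, Rel and Ep300. Pax5 and Nfkbia stayed called between tumour types under every alternative run. With genes of at least 3 probes, the count called was 1091 between tumour types, 7 between genotypes, 239 relative to the chromosome and 1206 relative to flanks; fewer genes were tested, and Nfkbia and Tnfaip3 were not. Relative to the chromosome, 599 genes were called with normexp, 610 in treated tumours, 139 with the slide as a random block and 0 with the mean within 500 kb. Relative to flanks, 1508 were called with normexp and 139 with the slide block, against 3020. The causes were not tested. Leaving out each tumour in turn gave 212 to 3372 calls relative to the chromosome, 1013 to 5522 relative to flanks and 0 to 478 for treatment, with the highest of each without WT1121. Member gains in lymphomas numbered 3 with a threshold of 0.4 and 9 with 0.15. They numbered 3 to 6 on leaving out a tumour, 3 without WT1405. Of all pairs, 1.32% were gained in lymphomas with 0.4 and 10.5% with 0.15, against 5.68% with 0.25. Member gains in carcinomas numbered 0 with the mean within 500 kb, and 0 to 1 on leaving out a tumour, 0 without WT1179. Member losses in carcinomas numbered 9 to 10 on leaving out a carcinoma. With a threshold of 0.4 those of Pax5, Nfkbia and Tnfaip3 in KO1134 and of Tnfaip3 in KO1097 were not called. With arrays centred on the median the KO1134 losses of these genes were not called. Of all pairs, 10.5% and 10.8% were lost in carcinomas in these settings, against 18.7%. Shares of all pairs on leaving out a tumour are not given. No paired analysis was possible because the replicate numbers are animal numbers and no group shares them. A gene read by 1 or 2 probes has little precision of its own. Its gains and losses were called on the segment, but the limma fits used its own probes.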
